A study of Mus musculus with 39 samples.

Results

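The gubernaculum of homozygous INSL3-KI male mice was compared between postnatal day 23 (P23) and postnatal day 8 (P8). The 6 libraries were chosen by their labels, 3 at each age, out of 39 in the series. In these mice the coding sequence of the mouse Insl3 gene had been replaced by the minke whale (Balaenoptera acutorostrata) INSL3 cDNA, with the neo cassette removed by Cre, so that the animals of both ages carried the same allele and differed by age. The C57BL/6J wild type (WT) gubernaculum at the same ages, 3 libraries each, carried the mouse gene and is set beside the INSL3-KI values where the age difference was tested against it. RNA was poly(A)-selected and sequenced from the whole dissected tissue. The labels call the 3 libraries of a group biological replicates. Whether tissue of several animals was pooled in a library is not given in the sources used here.

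The gubernaculum is the cord of mesenchyme, muscle and connective tissue that runs from the testis and epididymis to the floor of the scrotum. INSL3 is a peptide hormone of the Leydig cells of the testis, and its receptor RXFP2 sits on gubernacular cells. In rodents the inguinoscrotal part of the gubernaculum turns into the cremaster, a muscular pouch around the testis, around and after birth. Loss of INSL3 or of RXFP2 leaves the gubernaculum thin and the testes in the abdomen.

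The 6 INSL3-KI libraries held 29861447 to 40564683 counted reads and the 6 WT libraries 34312042 to 37707231. Levels below are CPM, read counts divided by library size after scaling by the trimmed mean of M values. They are not scaled for gene length, so they compare libraries and not genes. Insl3 had 0, 0 and 0 reads in P8 INSL3-KI replicates 1, 2 and 3 and 12, 28 and 0 reads in P23 replicates 1, 2 and 3, against 0.713 to 2.61 CPM in WT at P8 and 0.285 to 1.07 CPM at P23. The hormone is made in the testis, so this low level says little about the allele, and which molecules gave the 12 and 28 reads was not tested. Rxfp2, the receptor gene, was at 1.54, 1.52 and 1.95 CPM in the 3 P8 INSL3-KI libraries and at 0.227, 4.79 and 1.24 CPM at P23, and the ages overlapped. WT held 37.2 to 46.9 CPM at P8 and 63.4 to 123 CPM at P23, above every INSL3-KI library. Rxfp2 RNA was thus low in the INSL3-KI tissue at both ages. Receptor protein was not measured here, and the part of the cell mixture in this difference was not tested.

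Skeletal muscle was scarce in INSL3-KI tissue throughout. The 52 sarcomere genes summed to 2659, 3441 and 3728 CPM in the 3 P8 libraries and 3474, 547 and 2444 CPM in the 3 P23 libraries, against 71985 to 76381 CPM in WT at P8 and 123933 to 230676 CPM in WT at P23. Of the 38 sarcomere genes with enough counts to test, 8 lay lower in all 3 P23 INSL3-KI libraries than in all 3 P8 libraries and 0 lay higher. The lower share was 21.1%, against 16.7% of all genes tested. Without P23 replicate 2, 13 of the 38 (34.2%) lay lower and 5 (13.2%) higher, against 23% and 22.7% of all genes. Tnnt1, the slow skeletal troponin T, had 63.4, 81.6 and 70.0 CPM at P8 and 22.1, 0.512 and 20.3 CPM at P23. Myom1, an M-band protein of the sarcomere, had 184, 279 and 229.5 CPM at P8 and 148, 38 and 109.7 CPM at P23. Mss51, a protein of skeletal muscle mitochondria, stayed between 0.664 and 1.54 CPM in the 6 INSL3-KI libraries and went from 1.41 to 2.15 CPM to 88.5 to 454 CPM in WT. The 2 ages of INSL3-KI thus overlapped in sarcomere RNA, and every WT library lay above every INSL3-KI library.

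The P23 INSL3-KI libraries differed from each other far more than the P8 ones did. Across 14065 genes the Spearman correlation was 0.977 to 0.991 between P8 libraries and 0.776 to 0.923 between P23 libraries. The lowest pair was P23 replicates 2 and 3. Replicate 2 also correlated least with the P8 libraries, at 0.806 to 0.827, against 0.913 to 0.934 for replicate 1 and 0.925 to 0.946 for replicate 3. Of 15384 genes, 3332 (21.7%) ranged over more than 2 log2 units among the 3 P23 libraries and 354 (2.30%) among the 3 P8 libraries. In WT at P23 it was 1236 genes (8.03%). The biological coefficient of variation estimated by edgeR was 0.635 in P23 INSL3-KI, 0.193 in P8 INSL3-KI, 0.375 in P23 WT and 0.210 in P8 WT. Of 10539 genes, P23 replicate 1 held 6 at over 4-fold above and 8 at over 4-fold below both other P23 libraries. Replicate 2 had 89 above and 583 below, and replicate 3 had 93 above and 232 below.

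With that spread, edgeR's quasi-likelihood test called 0 genes lower (0%) and 0 genes higher (0%) at P23 of 15384 tested, with a call set at a Benjamini-Hochberg adjusted p below 0.01 together with a 2-fold difference. The smallest adjusted p was 0.13, and 3079 genes had an unadjusted p under 0.05. DESeq2, with the same thresholds, called 358 genes lower (2.18% of 16432) and 232 higher (1.41%). The 3 P23 libraries all lay below the 3 P8 libraries for 2573 of 15384 genes (16.7%), and all lay above them for 2095 (13.6%). These last 2 shares are the background for the counts over all 6 libraries below. For the list members that DESeq2 called, the background is its 2.18% lower and 1.41% higher. Fewer libraries separate more easily, so a count without 1 library has a background of its own. Without P23 replicate 1, 20.3% of all genes lay below and 17.3% above. Without P23 replicate 2 there were 3539 genes below (23%) and 3496 above (22.7%), and without replicate 3 there were 3864 (25.1%) and 3994 (26.0%). In WT the same edgeR test called 649 genes lower (4.31% of 15053) and 917 higher (6.09%). Without 1 of the P8 WT libraries the WT counts were 142 to 221 lower and 121 to 170 higher, and without P23 WT replicate 2 they were 432 and 578. Genes of the INSL3-KI comparison are therefore described by their values in each library, and none of them is called changed by edgeR on its own. Over all genes tested the median fitted difference was 0.06 on the log2 scale. Lower RNA of a cell type's genes can mean fewer such cells or less RNA per cell, which bulk libraries cannot tell apart.

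What each P23 library was made of can be read from marker lists. White adipocyte genes (22 genes for fat storage and its hormones) summed to 3767, 3988 and 4792 CPM in the P8 INSL3-KI libraries and to 32283, 67772 and 2668 CPM in P23 replicates 1, 2 and 3. Replicates 1 and 2 were rich in fat RNA, and replicate 3 was below every P8 library. Genes of the epididymal epithelium, the secretory lining of the duct that carries sperm, summed to 1660.0, 3626 and 2230.2 CPM at P8 and 3979, 15.7 and 12038 CPM in P23 replicates 1, 2 and 3. In WT this list reached 11 CPM at most in 5 libraries and 1582 CPM in P23 replicate 3. Duct RNA was thus present in all 3 P8 INSL3-KI libraries, highest in P23 replicate 3 and nearly gone from P23 replicate 2. In replicate 2, 29 of the 38 genes were at 0, against 19 and 8 in P23 replicates 1 and 3. At P8 it was 18, 12 and 14 genes.

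Smooth muscle contractile genes summed to 19345, 25623 and 23118 CPM at P8 and 20078, 2517 and 16467 CPM in P23 replicates 1, 2 and 3. Myh11, the smooth muscle myosin heavy chain, fits that order with 4142, 6087 and 4769.6 CPM at P8 and 5919.6, 347 and 4082 CPM at P23. In WT the smooth muscle list summed to 4717 to 4991 CPM at P8 and 8390 to 11979 CPM at P23. Every P8 INSL3-KI library thus lay above every WT library for this list. Endothelial genes summed to 1298, 1129 and 1228 CPM at P8 and 1717, 5742 and 635 CPM at P23, and erythroid genes, mostly globins, to 584, 681 and 555 CPM and 581, 5739.7 and 285 CPM. Replicate 2 was therefore the library with the least smooth muscle RNA and the most vessel and blood RNA. The genes farthest above both other P23 libraries in it were Vwf, an endothelial clotting factor carrier, followed by Susd5, Adamtsl2, Map3k7cl, Col8a1 and Nov. Adamtsl2, Col8a1 and Nov encode extracellular matrix proteins. Next came the beta-globin gene Hbb-bs, the alpha-globin genes Hba-a1 and Hba-a2, which are near-identical copies and may share reads, and Gja5, a gap junction protein of arteries. The genes farthest below both others in that library included Pax8, a transcription factor of the Wolffian duct, and Crisp1 and Defb42, secreted proteins of the epididymis. The genes farthest above both others in replicate 3 included Rnase9, Adam7 and Pate1, further epididymal genes, and those farthest below included Cidec and Cfd, genes of the fat cell. The part of these mixtures in the age differences below was not tested, so each value is given by library.

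**Figure D1:**
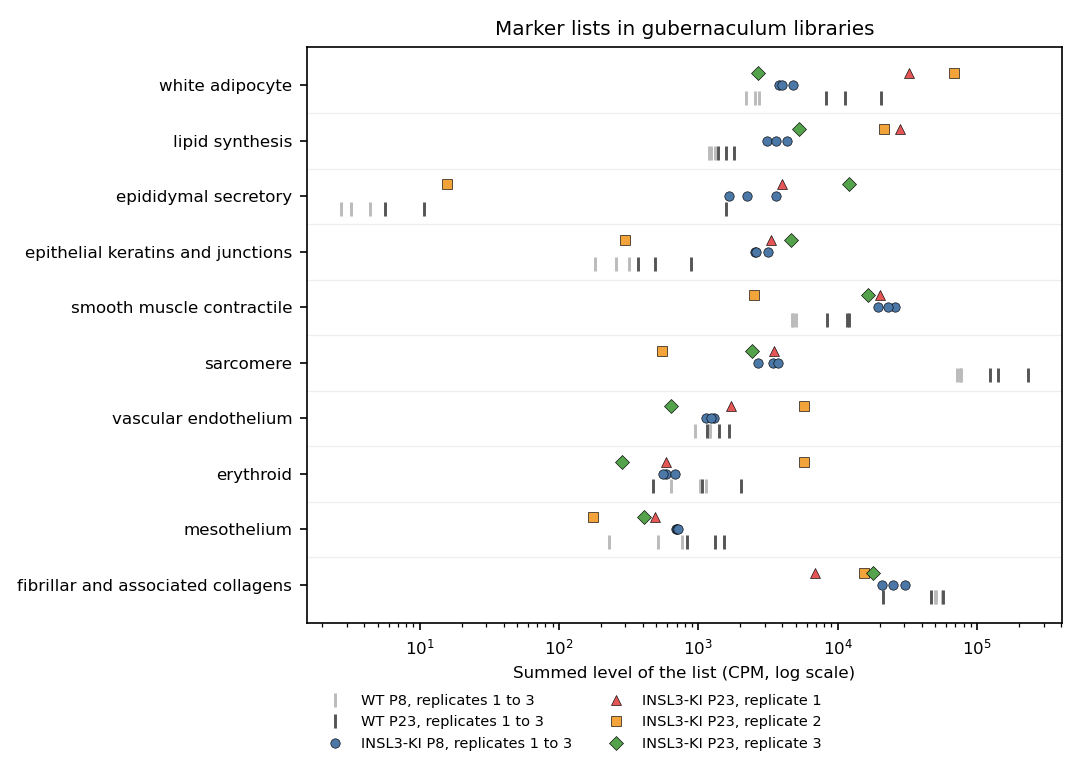
Summed CPM (log axis) of 10 marker lists in each library. Blue circles are the 3 INSL3-KI P8 libraries, the red triangle, orange square and green diamond are INSL3-KI P23 replicates 1, 2 and 3, and light and dark ticks are the WT libraries at P8 and P23. The P23 symbols spread widely for white adipocyte, epididymal and smooth muscle genes.

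The genes with the smallest p-values among those lower in every P23 library were led by Dlk1, a secreted and membrane-bound inhibitor of fat cell differentiation that is imprinted and expressed by immature mesenchyme. Its level was 235, 189 and 204 CPM at P8 and 13.2, 11.4 and 24.1 CPM at P23, a log2 difference of -3.69 ± 0.34 (SE). The lowest P8 value lay far above the highest P23 value. Piezo2, a stretch-gated ion channel, had 31.1, 30.3 and 31.4 CPM at P8 and 10.04, 10.03 and 12.3 CPM at P23. Mn1, a transcriptional coregulator, had 36.3, 32.4 and 30.6 CPM and 14.1, 12.6 and 14.1 CPM, and Cpe, the carboxypeptidase that trims peptide prohormones, 798, 723 and 644 CPM and 249, 225 and 299 CPM. Scarf2, a scavenger receptor family member, went from 171, 161 and 157 CPM to 47.4, 57.1 and 71.2 CPM. A small p selects genes whose libraries of one age lie close together. The log2 differences were -1.52 ± 0.15 for Piezo2, -1.29 ± 0.14 for Mn1, -1.49 ± 0.19 for Cpe and -1.48 ± 0.19 for Scarf2. The other 7 genes of this set were Adamts17, Cacng7, Upk3b, Cdca7, Myrf, Zfp46 and Slc36a4. All 12 had an adjusted p of 0.13 in edgeR's quasi-likelihood test with Benjamini-Hochberg adjustment. When the 12 gubernaculum libraries were fitted together, 10 of 16151 genes were called lower in INSL3-KI at P23 and 0 higher. Mn1, Cpe and Scarf2 were among the 10, with Adcy2, Cacna1g, Gpsm1, Mlip, Mmp11, Podxl2 and Ppp1r14c. That fit estimates the spread over the WT groups as well, which varied less than P23 INSL3-KI. Mlip was near the floor, with 19, 9 and 14 reads at P8 and 0 in each P23 library.

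The fetal and neonatal growth program of imprinted genes lay lower at P23. These genes, expressed from one parental copy, form a network that is high in growing tissue before and after birth and is shut down with age. Of the 15 members tested, 9 lay lower in all P23 libraries (background 16.7%) and 0 higher, and DESeq2 called 6 lower. The median log2 difference was -0.76. Igf2, the fetal growth factor, had 235, 149.6 and 215 CPM at P8 and 17.9, 48.2 and 56.2 CPM at P23. Peg3, a zinc finger factor of the network, had 215, 186 and 194 CPM and 52, 80.1 and 44.2 CPM, and Cdkn1c, a cyclin-dependent kinase inhibitor, 115, 71.7 and 107 CPM and 24.8, 40.3 and 26.4 CPM. In all 3 genes every P23 value lay below every P8 value. Mest, an enzyme that marks expanding fat cells, had 177, 57.8 and 162 CPM and 41.1, 316 and 20.8 CPM, so that replicate 2 stood above every P8 library. Without P23 replicate 2 the count of members lower in all remaining P23 libraries was 13 of 15 (86.7%, background 23%).

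WT began from a much higher level. At P8 Igf2 was at 6594 to 7355 CPM in WT against 149.6 to 235 CPM in INSL3-KI, and it fell in WT to 355 to 602 CPM (log2 difference -3.86, adjusted p = 0.00057 in edgeR). Dlk1 was at 3784 to 5227 CPM in WT at P8 and fell to 8.42 to 189.6 CPM at P23 (log2 difference -5.67, adjusted p = 0.0066 in edgeR). The median log2 difference of the 15 imprinted genes was -2.83 in WT. Of these genes only Peg10, a retrotransposon-derived gene, was called in the test of the difference between genotypes by edgeR. It was at 17.6, 16.5 and 17.2 CPM in P8 INSL3-KI and 7.86, 11.6 and 8.16 CPM at P23, and fell in WT from 445, 342 and 379.7 CPM to 7.35, 23.8 and 18.3 CPM. The drop in WT was larger by 3.67 ± 0.49 (SE) on the log2 scale (edgeR adjusted p = 0.008).

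Insulin-like growth factor genes beyond Igf2 were also lower in several members. Of the 17 genes of the pathway 7 lay lower in all P23 libraries and 1 higher, and DESeq2 called 4 lower and 1 higher. Of the 7 lower genes 3 encode binding proteins that hold IGFs outside the cell. Igfbp5, a binding protein abundant in mesenchyme and muscle precursors, had 839, 532 and 689.9 CPM at P8 and 225, 267 and 200.4 CPM at P23, and Igfbp3, the main carrier of IGFs in serum, 500.5, 700.1 and 238 CPM and 68.8, 63.6 and 166 CPM. Igfbp2, a further carrier, had 28.7, 11.7 and 37.3 CPM and 5.73, 3.16 and 9.89 CPM. All 3 were lower at P23 without overlap. In WT Igfbp5 went the other way, from 1154, 1555 and 1439 CPM to 3153, 3301 and 2772 CPM, and the age effects of both genotypes differed by -2.72 ± 0.32 (SE) on the log2 scale (edgeR adjusted p = 0.0042).

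**Figure D2:**
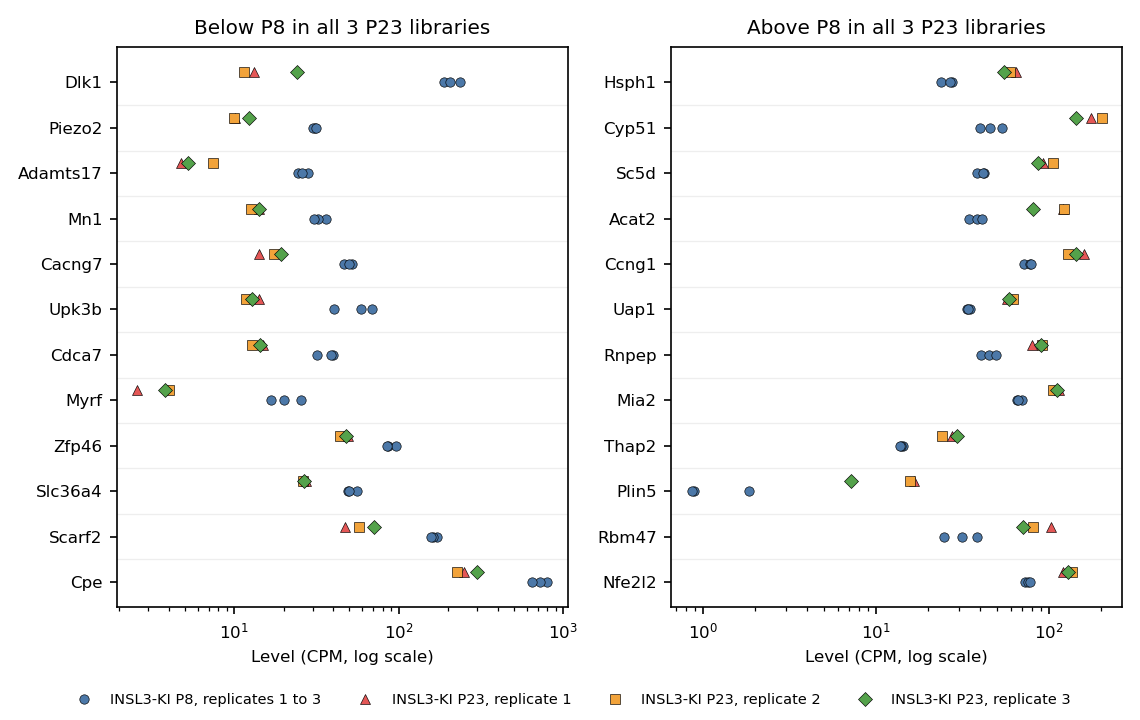
CPM (log axis) of the 12 genes with the smallest p-values lower and the 12 higher at P23 in the 6 INSL3-KI libraries. Blue circles are P8 libraries and the red, orange and green symbols are P23 replicates 1, 2 and 3. For each gene shown the P8 and P23 libraries do not overlap, although edgeR called none of them.

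Mesothelial genes, which mark the flat cell layer that covers the testis, epididymis and the wall of the processus vaginalis, were lower at P23 in most members. Of 14 tested, 10 lay lower in all P23 libraries and 0 higher, DESeq2 called 7 lower, and the list's median log2 difference was -1.70. Msln, the surface protein mesothelin, had 15.2, 7.77 and 12.2 CPM at P8 and 2.01, 2.02 and 1.86 CPM at P23 (log2 difference -2.59 ± 0.33). Upk3b, a uroplakin of mesothelial membranes, had 68.9, 40.5 and 59.2 CPM and 14.2, 11.9 and 12.8 CPM (log2 difference -2.12 ± 0.23). Lrrn4, another mesothelial membrane protein, had 19.1, 10.8 and 16.9 CPM and 4.59, 4.52 and 2.81 CPM, and Wt1, the transcription factor of this lineage, 32.6, 37.9 and 24.4 CPM and 3.74, 13.8 and 13.3 CPM. Krt19, a keratin shared with duct epithelium, had 447, 528 and 508 CPM and 391, 4.94 and 341 CPM, its low value lying in replicate 2. In WT Msln had 23.1, 83.9 and 78.1 CPM at P8 and 193, 195 and 91.7 CPM at P23, and Upk3b 39.7, 189 and 107 CPM and 302, 337 and 191 CPM. No gene of the list was called in the test of the difference between genotypes, where Msln had a log2 difference of -3.95 ± 0.67 (SE) with an edgeR adjusted p of 0.013 and Upk3b one of -3.42 ± 0.65 with 0.018.

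Wnt signals pattern the caudal mesenchyme and its muscle. Of 36 pathway genes tested, 17 lay lower in all P23 libraries and 2 higher, with a median log2 difference of -0.68, and DESeq2 called 3 lower. Secreted antagonists were among the lower genes. Sfrp2, a secreted Frizzled-related protein, had 1425, 569 and 1025 CPM at P8 and 153, 106 and 271 CPM at P23, and Dkk2, a Dickkopf inhibitor, 121, 40.2 and 83.4 CPM and 7.86, 3.98 and 20.0 CPM. Wif1, which binds Wnt ligands, had 18, 14.7 and 22.7 CPM and 5.84, 0.0904 and 8.74 CPM. Transcription factors that carry the signal in the nucleus were lower as well, with Tcf7 at 20.4, 17.2 and 18 CPM and 4.79, 3.37 and 13.2 CPM and Lef1 at 20.7, 22.7 and 26.1 CPM and 6.38, 0.994 and 20.6 CPM, the latter only just below in replicate 3. Axin2, a target gene that reports Wnt activity in many tissues, overlapped between ages with 27.3, 31.6 and 30.2 CPM and 26.8, 45.5 and 59.1 CPM. Of the list Sfrp5, a further antagonist, was called in the test between genotypes: it stayed at 3.25 to 3.87 CPM at P8 and 2.74 to 3.04 CPM at P23 in INSL3-KI and went from 2.64 to 3.82 CPM to 15.3 to 18.3 CPM in WT (difference -2.76 ± 0.29 on the log2 scale, edgeR adjusted p = 0.0036).

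In the Hedgehog pathway, 7 of 14 genes lay lower in all P23 libraries and 0 higher, with a median log2 difference of -0.54, and DESeq2 called 2 lower. The 7 lower genes act where the signal is received or carried to the nucleus. Without P23 replicate 3, 11 of 14 (78.6%, background 25.1%) lay lower. Gli1, a transcription factor that is itself a target of the pathway, had 46.3, 61 and 51.1 CPM at P8 and 21, 7.92 and 41.7 CPM at P23. Gli2, the main activator, had 36.2, 33.2 and 30.3 CPM and 11.3, 6.78 and 13.2 CPM, and Gas1, a coreceptor, 556, 581 and 498 CPM and 201, 206 and 266 CPM. Ptch1, the receptor and also a target, overlapped between ages at 92.4, 102 and 88.9 CPM and 64.7, 35.1 and 97.3 CPM. Hhip, a decoy receptor, had 41.1, 33.8 and 41.7 CPM and 20.7, 0.271 and 69.7 CPM, ranging from near 0 in replicate 2 to above every P8 library in replicate 3. Gli1, Gli2, Ptch1 and Hhip were lowest in replicate 2, the library poor in duct and smooth muscle RNA, whose part in these values was not tested.

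Matrix genes of the mesenchyme were lower in part. Of 17 fibrillar and associated collagens 9 lay lower in all P23 libraries and 0 higher, and the list's median log2 difference was -0.77. Col1a1, the chief collagen of connective tissue, had 7042, 4615 and 5875 CPM at P8 and 1057, 2406 and 4278 CPM at P23, and Col3a1, its partner in soft tissue, 9809.8, 7178 and 8034 CPM and 2032, 5552 and 5799.7 CPM. Replicate 1 was lowest for both. Col12a1, a collagen that decorates fibrils in tendon and fascia, had 682, 422 and 496 CPM and 91.9, 39.5 and 150.1 CPM, a log2 difference of -2.51 ± 0.52, and was the one collagen that DESeq2 called. Of 9 tendon and ligament genes 5 lay lower and 0 higher. Scx, the transcription factor of tendon cells, had 3.37, 2.92 and 1.71 CPM and 0.51, 0.904 and 1.35 CPM in INSL3-KI and 24.6 to 26.9 CPM and 29.3 to 41.6 CPM in WT. Mkx, a second tendon transcription factor, had 23.8, 22.1 and 32.5 CPM and 14.9, 1.33 and 8.76 CPM in INSL3-KI.

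Nerve-associated genes were lower in part. The 20 Schwann cell and myelin genes summed to 563, 589 and 547 CPM at P8. In P23 replicates 1, 2 and 3 they summed to 557, 375 and 641 CPM, so the summed level overlapped between ages. In these 3 libraries 4, 2 and 4 of the tested members lay above every P8 library. Of 18 Schwann cell and myelin genes 10 lay lower in all P23 libraries and 0 higher, DESeq2 called 4 lower, and the median log2 difference was -0.87. Sox10, the transcription factor that defines Schwann cells, had 16.8, 14.7 and 17.6 CPM at P8 and 4.99, 2.86 and 6.15 CPM at P23. Cdh19, a cadherin of Schwann cell precursors, had 10.6, 15.8 and 9.68 CPM and 6.3, 5.42 and 8.01 CPM. All 3 P23 libraries were below all 3 P8 libraries for each. In WT Sox10 overlapped between ages at 15.9 to 17.2 CPM and 9.33 to 20.8 CPM. The test between genotypes called no gene of this list at the 0.01 threshold (Sox10 difference -1.56 ± 0.46 on the log2 scale, edgeR adjusted p = 0.065). Of 13 neuronal genes tested, 6 lay lower and 0 higher.

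Proliferation markers of the cell cycle did not separate by age in INSL3-KI. Of 42 genes 1, Ccnd2, lay higher in all P23 libraries and 0 lower, and the median log2 difference was -0.12. Mki67, a protein of dividing cells, had 134, 47 and 113 CPM at P8 and 112, 115 and 106 CPM at P23. The low P8 value came from replicate 2, and without that library 26 of the 42 genes (61.9%, background 21.2%) lay lower in all P23 libraries. In WT Mki67 had 124, 220.2 and 229 CPM at P8 and 26.4, 82.8 and 49.7 CPM at P23, and the list's median log2 difference was -1.44. No cell cycle gene was called in the test between genotypes (Mki67 difference 2.04 ± 0.63 on the log2 scale, edgeR adjusted p = 0.075).

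Genes of fat storage lay higher at P23 in 2 of the 3 libraries. White adipocyte genes had a median difference from the P8 mean of 2.78, 4.02 and -0.60 log2 units in P23 replicates 1, 2 and 3. Of 22 genes, 3 lay higher in all P23 libraries and 0 lower, and without replicate 3 all 22 lay higher (background 26.0%). Adipoq, the hormone adiponectin, had 83.2, 84.4 and 119 CPM at P8 and 829.9, 1906 and 62.8 CPM at P23, and Plin1, which coats the lipid droplet of fat cells, 139.6, 120.1 and 196 CPM and 886, 1799 and 74.1 CPM. Lpl, the lipase that frees fatty acids from lipoproteins, had 633, 451 and 684 CPM and 3983, 9595 and 339 CPM. For each, replicates 1 and 2 were several-fold above P8 and replicate 3 was below the lowest P8 library. WT held 0.171 to 0.212 CPM of Adipoq at P8 and 0 to 0.435 CPM at P23. The whole list nevertheless summed in WT to 2205, 2734 and 2563 CPM at P8 and 20424, 11367 and 8186 CPM at P23. In this sum each P23 WT library lay above every P8 WT library and above P23 INSL3-KI replicate 3. In WT only 15 of the 22 genes had enough counts to test, and 0, 3 and 4 were at 0 in the P23 libraries. With Adipoq nearly absent, the WT sum does not by itself show fat cells, and their presence was not tested. No gene of the list was called in the test between genotypes. Without replicate 3, edgeR called 1 gene higher at P23, Ces1f, a carboxylesterase of fat and liver, which had 3.82, 3.61 and 3.66 CPM at P8 and 131, 132 and 3.8 CPM at P23.

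Lipid synthesis was the fat-related list that reached all 3 libraries. Of 22 genes 11 lay higher in all P23 libraries (background 13.6%) and 0 lower, with a median log2 difference of 2.40, and DESeq2 called 13 higher. Fasn, fatty acid synthase, had 224, 252 and 269.9 CPM at P8 and 5799, 3167 and 544 CPM at P23, and Acly, which makes its acetyl-CoA from citrate, 150.4, 155 and 154 CPM and 1126, 343 and 283 CPM. Thrsp, a lipogenic regulator, had 18.9, 54.8 and 45.2 CPM and 1327, 1854 and 114 CPM. In replicate 3 the difference from P8 was small beside that of replicates 1 and 2. Scd1, which desaturates fatty acids, did not follow, with 835, 927 and 1707 CPM and 10866, 8066 and 746 CPM. Plin5, a droplet protein of oxidative tissue, had 0.886, 0.86 and 1.83 CPM and 16.6, 15.8 and 7.17 CPM and was among the 12 leading genes.

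Cholesterol synthesis genes lay higher in the median of each P23 library, the fat-poor replicate 3 included. This list was made after values of these genes had been seen. Of its 25 genes 14 lay higher in all P23 libraries and 1 lower, the median log2 difference was 0.88, and the medians by library were 1.00, 0.60 and 0.77 in replicates 1, 2 and 3. DESeq2 called 6 higher. Cyp51, lanosterol demethylase, had 45.9, 39.9 and 53.4 CPM at P8 and 175, 202 and 144 CPM at P23, a log2 difference of 1.90 ± 0.19. Sc5d, a late desaturase of the pathway, had 42, 38.4 and 41.7 CPM and 92.9, 105 and 87 CPM, and Acat2, which makes acetoacetyl-CoA at its start, 34.3, 38.4 and 41.1 CPM and 121, 122 and 80.8 CPM. Hmgcs1, HMG-CoA synthase, had 112, 77 and 113 CPM and 207, 214 and 139 CPM, and the sterol sensor Insig1 44.3, 28.3 and 51.8 CPM and 227, 180.1 and 65.7 CPM. In all 5 the ages did not overlap. Sqle, which opens the sterol branch, overlapped at 47.2, 35.1 and 45.2 CPM and 76.9, 29.6 and 87.7 CPM.

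In WT the cholesterol list had a median log2 difference of -0.84. Cyp51 had 71.6, 59.8 and 68.2 CPM at P8 and 10.6, 26.1 and 40.5 CPM at P23 in WT, and Insig1 92.5, 82.8 and 85.7 CPM and 21, 28.1 and 30.8 CPM. The 2 genotypes thus lay on opposite sides, although no gene of the list was called in the test of that difference. For Cyp51 it was 3.28 ± 0.53 on the log2 scale (edgeR adjusted p = 0.012) and for Insig1 3.64 ± 0.55 (edgeR adjusted p = 0.011).

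Cyp51, Sc5d and Acat2 were the 3 cholesterol genes among the 12 leading higher genes with an entry in the RefSeq promoter table (build GRCm38.p6). Promoters of Cyp51 and Sc5d are shown because they held a CCAAT box, and Acat2 held none within 250 bases before its start. Each line gives the 170 bases before the transcription start, 5′ to 3′ on the gene's strand, with CCAAT boxes (CCAAT or its reverse complement ATTGG) in capitals. Cyp51 lies on the minus strand at chr5:4104698-4104867 and Sc5d on the minus strand at chr9:42264301-42264470. The genes were chosen after their values were seen.
Cyp51: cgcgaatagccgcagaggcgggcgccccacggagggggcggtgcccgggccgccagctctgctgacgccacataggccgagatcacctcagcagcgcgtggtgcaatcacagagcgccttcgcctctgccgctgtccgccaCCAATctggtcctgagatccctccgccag
Sc5d: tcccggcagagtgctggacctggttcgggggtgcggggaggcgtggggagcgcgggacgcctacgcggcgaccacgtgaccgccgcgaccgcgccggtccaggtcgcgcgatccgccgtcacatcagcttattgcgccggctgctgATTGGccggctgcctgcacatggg

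The CCAAT box is bound by NF-Y, a factor that works beside sterol-sensing SREBP proteins at genes of this pathway. It lies 29 bases before the start in Cyp51 and 24 bases before it in Sc5d. Within 250 bases before the start it was found in 16 of the 17 cholesterol genes with an entry, in 12 of 13 whose P23 libraries all lay above P8 and in 4 of the 4 others. The share over all 27025 genes was 37.5% (10133 genes). Members with and without a separation by age thus held it alike. The core sterol regulatory element TCACNCCAC, searched on both strands, was found in 1 of these 17 and in 331 (1.22%) of all genes. A match of letters is a description and does not show that a factor binds there.

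**Figure D3:**
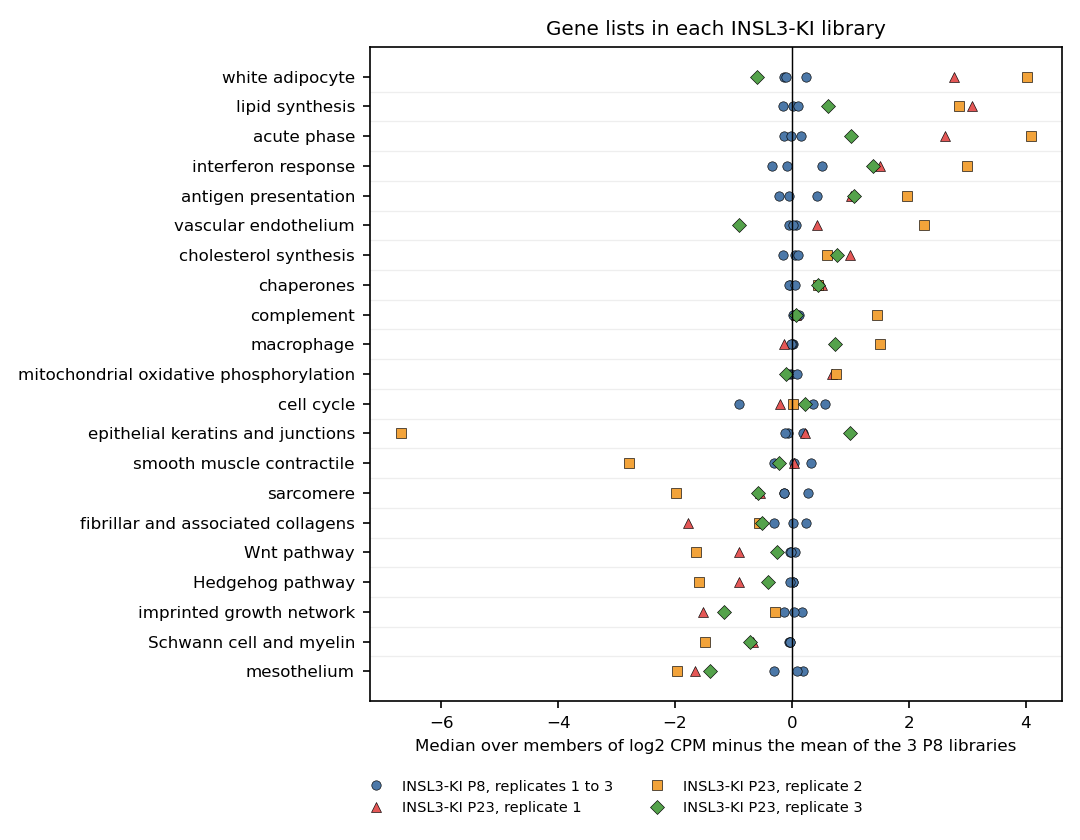
Median over the genes of each list of log2 CPM minus the P8 INSL3-KI mean, for 21 lists. Red triangles, orange squares and green diamonds are P23 replicates 1, 2 and 3 and blue circles the P8 libraries. Interferon, antigen presentation, cholesterol and chaperone lists lie to the right of 0 in all 3 P23 libraries, and mesothelial, Schwann cell and Wnt lists to the left.

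Chaperones, the proteins that fold other proteins in the cytosol and endoplasmic reticulum, lay slightly higher in the median of each P23 library. This list, too, was made after values had been seen. Of 35 genes 20 lay higher in all P23 libraries and 1, Hsf2, lower. The medians of 0.52, 0.45 and 0.44 log2 units in replicates 1, 2 and 3 were nearly equal, and DESeq2 called 1 gene higher. Hsph1, a cytosolic Hsp110 chaperone, had 23.7, 27.3 and 27 CPM at P8 and 64.5, 59.9 and 54.8 CPM at P23. Hspa5, the BiP chaperone of the endoplasmic reticulum, had 298, 295 and 340.5 CPM and 560.3, 568 and 556 CPM. The heat-inducible Hspa1a overlapped with 91.7, 141 and 87.1 CPM and 114, 9.52 and 125 CPM, and Hspa1a and its near-identical copy Hspa1b may share reads. The low value of Hspa1a came from replicate 2.

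In the test of the difference between genotypes edgeR called 4 of the 35 chaperones, Hsph1, Hspa4l, Hspa5 and Hsp90aa1. Each had a higher age difference in INSL3-KI than in WT. Over all 16151 genes 14 (0.0867%) were called on this side. Because the list was made after values of these data had been seen, the count of 4 is a description and not a test. Hsph1 went from 72.6, 60.1 and 63.3 CPM to 53.2, 38.2 and 39.6 CPM in WT, and the difference of the age effects was 1.79 ± 0.21 on the log2 scale (edgeR adjusted p = 0.0042). Hspa5 went from 639, 575 and 546 CPM to 352, 347 and 412 CPM in WT (difference 1.52 ± 0.19, edgeR adjusted p = 0.0059). The heat shock element TTCNNGAA stood within 250 bases before the start in 4 of the 27 chaperone genes with an entry and in 2193 (8.11%) of all genes. It was in 2 of 16 members whose P23 libraries all lay above P8 and in 2 of the 11 others.

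Interferon response genes were the list with the largest share of members higher in every P23 library. Interferon-stimulated genes respond to type I and type II interferons and encode antiviral proteins. Of 20 tested, 16 lay higher in all P23 libraries (background 13.6%) and 0 lower, DESeq2 called 8 higher, and the list's median log2 difference was 2.07. By library the medians were 1.51, 3.001 and 1.38 log2 units in replicates 1, 2 and 3. Leaving out any 1 of the 6 libraries left 16 to 19 of 20 higher, against 14.9% to 26.0% of all genes. Replicate 2 was highest, and replicates 1 and 3 were close to each other. White adipocyte medians fell in the same order, at 2.78, 4.02 and -0.60 log2 units in replicates 1, 2 and 3. The part of fat RNA in the interferon values was not tested.

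Promoters of Rsad2, Oas1a and Ifit3 are printed because these 3 had the largest log2 difference among the interferon genes that hold an interferon-stimulated response element, the promoter site through which type I interferon acts. It was searched as a pair of GAAA blocks set 2 bases apart and, on the other strand, of TTTC blocks set 2 bases apart, and matches are in capitals. Each line gives the 170 bases before the start on the gene's strand from RefSeq (build GRCm38.p6). Rsad2 lies on the minus strand at chr12:26456453-26456622, Oas1a on the minus strand at chr5:120907526-120907695 and Ifit3 on the plus strand at chr19:34583359-34583528. The capitals in Oas1a mark 2 overlapping matches.
Rsad2: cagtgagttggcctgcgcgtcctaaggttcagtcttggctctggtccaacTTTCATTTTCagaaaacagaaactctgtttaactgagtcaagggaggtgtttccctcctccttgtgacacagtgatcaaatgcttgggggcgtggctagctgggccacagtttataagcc
Oas1a: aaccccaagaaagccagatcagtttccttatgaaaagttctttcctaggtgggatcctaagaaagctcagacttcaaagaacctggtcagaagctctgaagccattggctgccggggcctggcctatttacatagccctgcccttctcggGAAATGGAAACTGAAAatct
Ifit3: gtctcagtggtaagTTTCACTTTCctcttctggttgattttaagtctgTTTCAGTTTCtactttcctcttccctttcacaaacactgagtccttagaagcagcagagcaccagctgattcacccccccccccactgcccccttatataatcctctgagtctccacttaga

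Rsad2, the antiviral enzyme viperin, had 3.75, 6.51 and 3.34 CPM at P8 and 25.3, 62.2 and 7.54 CPM at P23. Oas1a, a sensor of double-stranded RNA, had 0.759, 1.75 and 0.93 CPM and 3.23, 10.6 and 4.49 CPM, and Ifit3, which binds viral RNA with its family, 5.67, 8.6 and 1.98 CPM and 16.2, 55.4 and 14.4 CPM. In each the lowest P23 library was replicate 1 or 3 and still above every P8 library. Reads of Oas1a and Ifit3 may be shared with close family members. Within 250 bases before the start the element was found in 9 of the 14 interferon genes with an entry and in 936 (3.46%) of all 27025 genes. It was in 8 of 11 members whose P23 libraries all lay above P8 and in 1 of the 3 others. Isg15, a ubiquitin-like modifier, had 1.77, 4.24 and 1.25 CPM and 6.52, 18.2 and 7.45 CPM.

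Antigen presentation genes followed the same pattern. Of 13 genes 9 lay higher in all P23 libraries and 0 lower, with a median log2 difference of 1.16, and DESeq2 called 6 higher. H2-K1, a class I heavy chain, had 141, 175 and 157 CPM at P8 and 727, 835 and 368 CPM at P23, and B2m, the light chain of class I, 453, 648 and 605 CPM and 932, 741 and 1159 CPM. Cd74, the invariant chain of class II, had 25.5, 57.3 and 36.7 CPM and 89.3, 217 and 150.2 CPM. Class I and class II members were both among the 9. The H2 genes are alike in sequence and may share reads. Tap1, the peptide transporter, overlapped at 26, 40.2 and 21.2 CPM and 36.4, 48.1 and 34 CPM.

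**Figure D4:**
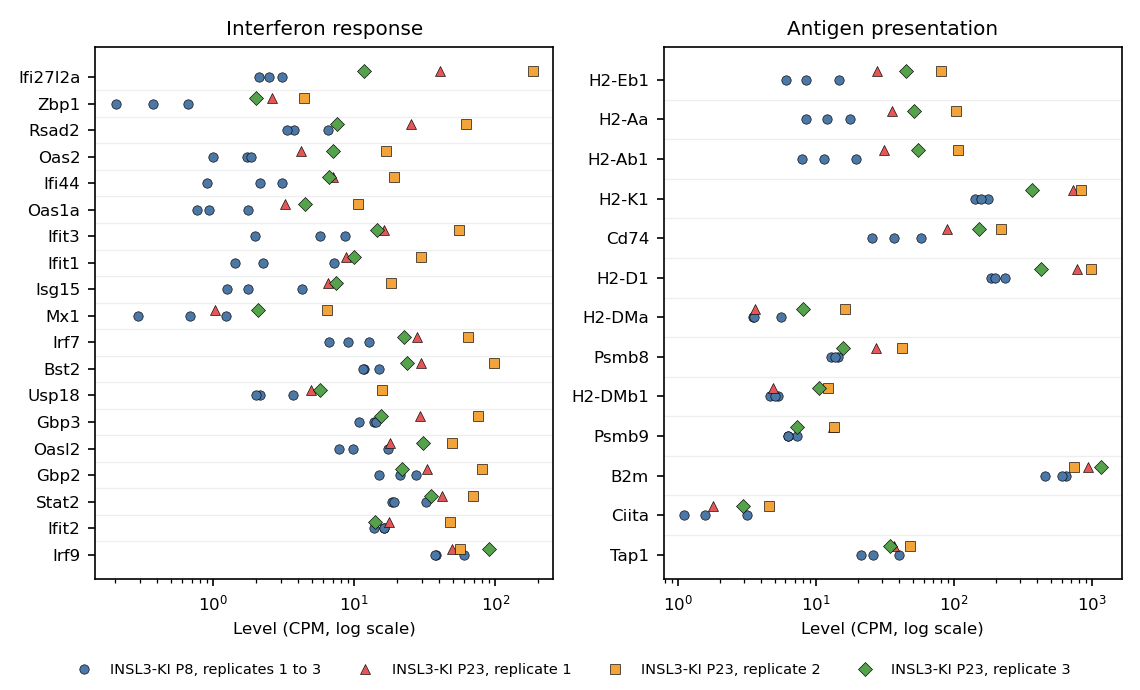
CPM (log axis) of 19 interferon response and 13 antigen presentation genes in the 6 INSL3-KI libraries. Blue circles are P8 libraries and the red, orange and green symbols are P23 replicates 1, 2 and 3. For 15 of the 19 and 9 of the 13 genes the P23 symbols all lie right of the P8 circles.

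Macrophages express class II genes as well. Their markers summed to 339.7, 328 and 335 CPM at P8 and 281, 937 and 507 CPM in P23 replicates 1, 2 and 3. Of 20 macrophage genes 5 lay higher in all P23 libraries, and without replicate 1 it was 16 (80%, background 17.3%). Their part in the interferon and antigen presentation values was not tested. Replicate 1 held macrophage genes at a median of -0.14 log2 units from the P8 mean and interferon genes at 1.51. In WT both lists were higher at P23 as well, with median log2 differences of 1.79 for interferon and 1.64 for antigen presentation genes. H2-K1 rose in WT from 47, 47.1 and 44.3 CPM to 241, 329 and 140.2 CPM (edgeR adjusted p = 0.0022). No gene of either list was called in the test of the difference between genotypes.

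Complement and acute phase genes joined the higher group in part. C3, the central complement protein, had 103, 145 and 101 CPM at P8 and 804, 909.5 and 231 CPM at P23. C4b had 2.81, 5.36 and 1.95 CPM and 44.8, 277 and 21.1 CPM, and may share reads with its near copy C4a. Hp, haptoglobin, which binds free hemoglobin and is made in liver and fat, had 14.3, 21.8 and 28.4 CPM and 347, 2390.0 and 55.5 CPM. Of 18 complement genes 5 lay higher in all P23 libraries, which is 27.8% against a background of 13.6%, and 0 lower. Without P23 replicate 3 it was 9 (50%, background 26.0%). Of the 13 acute phase genes tested, from a list made after values were seen, 8 lay higher and 0 lower. For C4b and Hp replicate 2 was far above the others, in the library with the most adipocyte and vessel RNA. Lcn2, another acute phase protein, overlapped at 22.4, 19.3 and 33.8 CPM and 23.9, 12 and 50.5 CPM.

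The last comparison asked where the age difference in INSL3-KI departed from that in WT. The 12 libraries were fitted together, and edgeR called 28 genes (0.173% of 16151) whose log2 difference was lower in INSL3-KI and 14 (0.0867%) for which it was higher, with the same thresholds. This is the tested result of the comparison. All 28 genes of the first set had every WT P23 library above every WT P8 library, and edgeR called 22 of them higher in WT. In INSL3-KI 22 of the 28 lay lower in all P23 libraries and 6 overlapped. All 14 genes of the other set had every WT P23 library below every WT P8 library. In INSL3-KI 7 of them lay higher at P23, 1 lower and 6 overlapped. These counts describe the called genes, since the same libraries chose them. The numbers depended strongly on single libraries. Without P23 INSL3-KI replicate 2 they were 216 and 130, and without replicate 3 they were 205 and 250. Without P23 INSL3-KI replicate 1, any 1 of the P8 INSL3-KI libraries, any 1 of the P8 WT libraries or P23 WT replicate 2, they were 0 to 4 and 0 to 3, and without P23 WT replicate 3 they were 17 and 7.

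The first set held genes that were higher at P23 in WT and lower or overlapping in INSL3-KI. Myoc, myocilin, a secreted matrix protein, had 9.49, 19.9 and 14.1 CPM at P8 and 2.24, 0.994 and 4.56 CPM at P23 in INSL3-KI and 1.41, 1.34 and 1.09 CPM and 137, 48 and 52.6 CPM in WT. The difference of the age effects was -8.42 ± 0.86 on the log2 scale (edgeR adjusted p = 0.0036). Itga8, an integrin of mesenchyme and smooth muscle, had 129, 82.4 and 87.6 CPM and 37.2, 38 and 63.5 CPM in INSL3-KI and 17.5, 17.9 and 21.1 CPM and 93.1, 175 and 78.3 CPM in WT. For both genes the P23 libraries lay below P8 in INSL3-KI and above P8 in WT. Crispld2, a secreted protein of mesenchyme, overlapped in INSL3-KI at 83.2, 88.4 and 71.5 CPM and 50.4, 80.8 and 74.5 CPM, and went in WT from 13.8, 14.5 and 17.4 CPM to 209, 194 and 88.2 CPM. Acsl6, a long-chain fatty acid CoA ligase, stayed under 1 CPM in all INSL3-KI libraries and went in WT from 3.3, 4.36 and 2.43 CPM to 61.4, 37.6 and 39.7 CPM.

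Muscle-related genes of this set were Mss51, given above, and Mlip, a lamin-binding protein of muscle. Mlip had 0.481, 0.258 and 0.407 CPM at P8 and 0 in the 3 P23 libraries of INSL3-KI, against 84.5, 107 and 93.3 CPM and 198, 140.2 and 153 CPM in WT. Its fitted value of -7.52 rests on the prior count, because the P23 libraries were at 0. Me3, a mitochondrial malic enzyme, had 5.75, 4.04 and 2.73 CPM and 1.45, 1.14 and 1.55 CPM in INSL3-KI and 3.27, 7.01 and 6.95 CPM and 50.9, 26.8 and 40.6 CPM in WT, and Nlrc3, an inhibitory NOD-like receptor, 1.77, 2.38 and 1.8 CPM and 1.28, 0.934 and 0.885 CPM against 1.8, 3.14 and 2.61 CPM and 55.2, 26.7 and 19.5 CPM. Mn1 and Cpe, 2 of the leading lower genes, also belonged to this set. Mn1 went from 30.0, 35.6 and 37 CPM to 92.6, 65.3 and 71.9 CPM in WT, opposite to its direction in INSL3-KI (difference -2.44 ± 0.21, edgeR adjusted p = 0.0024). No sarcomere gene was called in this test.

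In the other set, Padi2, a peptidylarginine deiminase, had 2.02, 1.2 and 1.42 CPM and 2.72, 2.2 and 1.61 CPM in INSL3-KI and fell in WT from 71.5, 60.2 and 66.2 CPM to 3.16, 2.78 and 1.67 CPM (difference 5.19 ± 0.42, edgeR adjusted p = 0.0024). Cd44, the hyaluronan receptor, had 44.8, 35.9 and 36.6 CPM and 33.1, 38.3 and 31.7 CPM in INSL3-KI and fell in WT from 189, 188 and 187 CPM to 35.1, 45.8 and 52.1 CPM (difference 1.90 ± 0.22, edgeR adjusted p = 0.0042). For both the P23 values of WT lay near those of INSL3-KI. Hsp90aa1, a chaperone of kinases and steroid receptors, had 215, 177 and 212 CPM and 262, 232 and 270.1 CPM in INSL3-KI, and 397, 385 and 337 CPM and 122, 159 and 169 CPM in WT. Fsd1l, Myzap and Shb completed the 8 genes named on this side together with Peg10 and Hsph1. Fsd1l had 14.5, 21.1 and 15.9 CPM and 22.5, 13.3 and 49.4 CPM in INSL3-KI and 66.7, 80.4 and 77.6 CPM and 5.73, 4.27 and 5.42 CPM in WT.

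**Figure D5:**
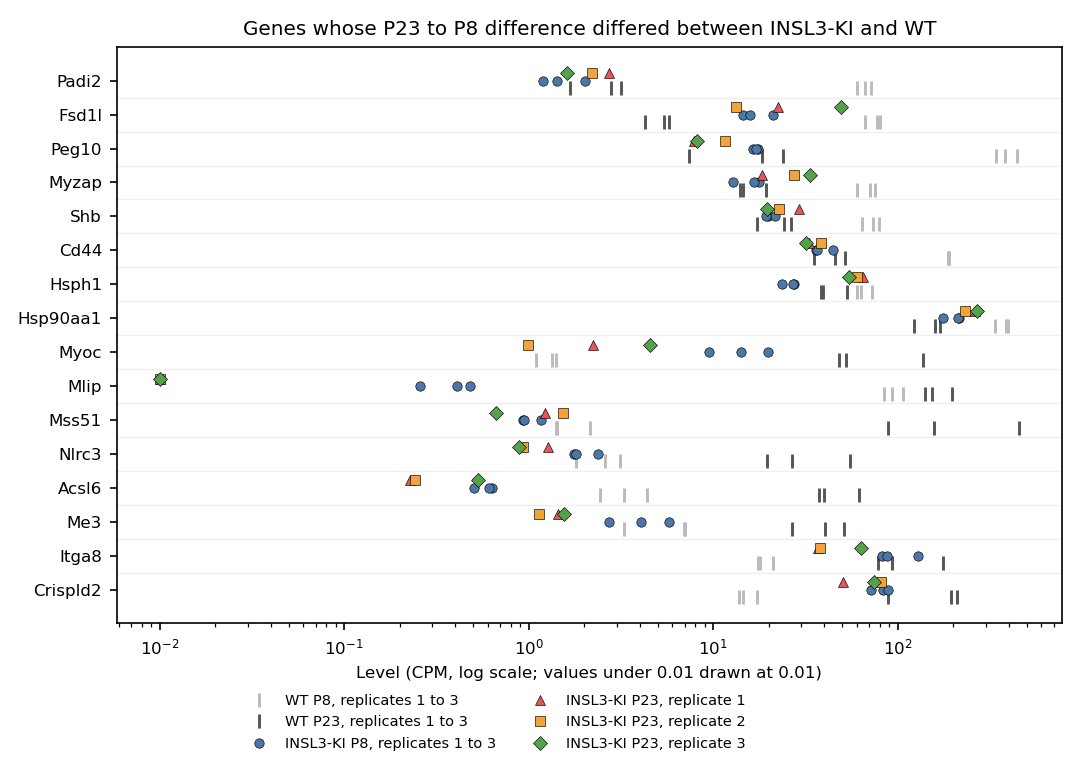
CPM (log axis, values under 0.01 drawn at 0.01) of the 8 genes named on each side of the test between genotypes, in the 12 libraries. Blue circles are INSL3-KI P8 libraries, the red triangle, orange square and green diamond INSL3-KI P23 replicates 1, 2 and 3, and light and dark ticks the WT libraries at P8 and P23. Myoc, Mss51 and Acsl6 are highest in WT at P23, and Padi2, Peg10 and Cd44 in WT at P8.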

How the data were processed

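The authors extracted RNA with TRIzol, made poly(A) libraries, sequenced paired ends on a NovaSeq and aligned the reads with HISAT2 to GRCm38. The deposited table gives raw read counts per gene and FPKM for each library. The counting program and its annotation are not given in the sources used here. Of 38822 entries the 22036 with an Ensembl identifier were used. Genes were filtered with edgeR's filterByExpr (count minimum 10, total 15) and tested with edgeR 4.0.16 (R 4.3.3) by the quasi-likelihood test with TMM scaling and Benjamini-Hochberg adjustment, on the 6 INSL3-KI libraries, the 6 WT libraries, and all 12 for the difference between genotypes. Calls needed an adjusted p under 0.01 and a fold of 2. The SE given with a log2 difference is its absolute value divided by the square root of the test's F statistic. It is therefore an approximate value derived from the test. Groups came from the labels. The p-values rest on the spread between libraries within groups, estimated for each gene over all groups of a fit together. The groups differed in that spread, which was widest in P23 INSL3-KI. The main tests did not use replicate numbers to pair libraries. The tests were first tried on simulated counts with known changes. Alternatives were DESeq2 1.42.0, limma 3.58.1 on log2(FPKM + pseudocount), voom weights, other scaling and filters, a replicate block and leaving out each library.

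Genes were named by rule: in each direction the 12 with the smallest p among non-overlapping genes of at least 10 CPM, 8 genes by the genotype test, the genes standing farthest apart in each P23 library, and per list its highest and its most different members. Axin2, Hhip, Hspa1a and other overlapping members set beside them, the non-overlapping Cdh19, and the printed promoters were chosen after their values were seen. Members and lists were chosen with earlier results of these data known. A few list members are counted but not reported here by name. RefSeq promoters covered 250 bases before the start.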

Additional observations from a re-analysis of the deposited data

Results flagged for a closer look

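The results below were picked out because the P23 to P8 difference in INSL3-KI departed from that in WT by edgeR's interaction test (adjusted p under 0.01, fold of at least 2). There were 28 genes with a lower and 14 with a higher difference in INSL3-KI. The named genes with a higher difference were Padi2 (5.19 on the log2 scale), Fsd1l (4.6), Peg10 (3.67), Myzap (2.87), Shb (1.92), Cd44 (1.90), Hsph1 (1.79) and Hsp90aa1 (1.66). Those with a lower difference were Myoc (-8.42), Mlip (-7.52), Mss51 (-6.97), Nlrc3 (-4.69), Acsl6 (-4.55), Me3 (-4.37), Itga8 (-3.72) and Crispld2 (-3.66). The value of Mlip depends on the prior count, since its 3 P23 INSL3-KI libraries were at 0.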

How the results depend on the processing

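The 0 genes lower and 0 higher in INSL3-KI held in each edgeR and limma setting except the fit of all 12 libraries, with 10 lower, and leave-one-out fits, with 0 lower and 0 to 1 higher (1 without P23 replicate 3). DESeq2 gave 358 and 232. With a replicate block INSL3-KI stayed at 0 and 0, with 1683 genes at an unadjusted p under 0.05, WT gave 252 lower and 238 higher, and the difference between genotypes 0 and 1. P8 and P23 INSL3-KI libraries of the same number had correlations of -0.13, -0.24 and -0.08 in their deviations from the group mean. At 3 libraries a group these values cannot exclude a link between libraries of the same number. For WT, lower and higher counts were 1168 and 1422 with DESeq2, 319 and 608 in the fit of 12 libraries, and 1172 and 1506 at an adjusted p under 0.05. Limma on log2(FPKM + 1) gave 601 higher. Leaving out 1 library gave 142 to 581 lower and 121 to 789 higher.

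For the difference between genotypes, lower and higher counts were 742 and 389 with DESeq2, 216 and 96 with limma on log2(FPKM + 1), 118 and 34 with FPKM + 0.1, 769 and 513 with voom sample weights, and 577 and 262 at an adjusted p under 0.05. Scaling by library size alone gave 7 higher, and leaving out 1 library gave 0 to 216 lower and 0 to 250 higher. The 16 named genes kept their sign in each setting, with 160 of their 352 values no longer past the threshold. Leaving out 1 INSL3-KI library, an alternative chosen after seeing the data, gave 2863 to 3864 genes with all P23 below all P8 libraries and 2297 to 3994 above. Of the INSL3-KI values of named genes only Rxfp2 reversed (0.33 on the log2 scale): -0.54 with the replicate block, -0.064 and -0.48 with limma at pseudocounts 1 and 0.1, -2.16 with voom weights and -1.17 to 0.86 over the fits that leave out 1 library (negative without P23 replicate 2). The cause was not tested in any of these. At 3 libraries a group, with P23 libraries this far apart, small differences were not detectable. Large ones could be missed too, since edgeR did not call Dlk1 at a log2 difference of -3.69 in the 6 INSL3-KI libraries. The 0 calls therefore do not show that large differences were absent.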

Other observations

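Hox genes, which give cells their position along the body axis and the limb and genital buds, lay on both sides. Of 34 tested, 8 (23.5%) were lower in all P23 INSL3-KI libraries and 3 (8.82%) higher, against backgrounds of 16.7% and 13.6%. Without P23 replicates 1, 2 and 3 the lower share was 23.5%, 23.5% and 32.4%, against 20.3%, 23% and 25.1% of all genes. The higher share was then 14.7%, 23.5% and 20.6%, against 17.3%, 22.7% and 26.0% of all genes. These shares lay near those of all genes, so the counts do not set the Hox genes apart. The lower ones were Hoxa9, Hoxa10, Hoxa11, Hoxa13, Hoxc11, Hoxd11, Hoxd12 and Hoxd13, and the higher ones Hoxc6, Hoxc9 and Hoxc10. They were named after their values were seen. Hoxd13, the most posterior gene of its cluster, had 66.2, 51 and 65.5 CPM at P8 and 29.4, 0 and 14 CPM in P23 replicates 1, 2 and 3. In WT it was at 0, 0 and 0 CPM at P8 and 0, 0 and 4.15 CPM at P23. Hoxa11 had 144, 127 and 132 CPM and 69.5, 1.24 and 55.9 CPM in INSL3-KI. The lowest values lay in replicate 2, which was also the library poorest in duct and smooth muscle RNA, and the part of that mixture was not tested.

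Of 18 genes of p53 signalling and apoptosis 6 lay higher in all P23 INSL3-KI libraries and 1, Trp53, lower. Cdkn1a, a cell cycle inhibitor that p53 induces, had 15.8, 32.9 and 16 CPM at P8 and 80.1, 122 and 48.9 CPM at P23, and in WT 393, 348 and 352 CPM and 91.7, 108 and 184 CPM. Its age difference lay 3.47 ± 0.56 (SE) higher in INSL3-KI on the log2 scale, an edgeR adjusted p of 0.012 that misses the threshold. Nfe2l2, the transcription factor of the antioxidant response, had 72.8, 76.1 and 78.2 CPM and 119.9, 136 and 129 CPM in INSL3-KI. Of the 8 neutrophil and mast cell genes tested, 5 lay lower in all P23 INSL3-KI libraries (background 16.7%). Cpa3, a mast cell protease, had 2.94, 2.67 and 3.69 CPM at P8 and 0.312, 0.904 and 0.84 CPM at P23 in INSL3-KI, and fell in WT from 24, 26.9 and 32.9 CPM to 1.98, 1.84 and 7.28 CPM (log2 difference -2.98, edgeR adjusted p = 0.0063).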
